A study of Saccharomyces cerevisiae with 2 samples.

Results

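The late ergosterol pathway is the run of enzymes that turns lanosterol into ergosterol, the main sterol of fungal membranes. The 10 genes described here were chosen by name, with earlier results of these data known. They are ERG11, ERG24, ERG25, ERG26, ERG27, ERG6, ERG2, ERG3, ERG5 and ERG4, from 5449 Saccharomyces cerevisiae genes measured on Affymetrix Yeast 2.0 arrays. Each of the 10 was read by 1 probe set, a group of short probes for 1 transcript, and all 10 lay above the background level in both arrays. The study compared a culture given alpha factor, the mating peptide secreted by cells of the alpha mating type, with a mock-treated culture, 1 array each. The treated cells were kept in 50 ng/ml alpha factor for 3 hours in rich medium at 30 °C, after which about 90% of them carried mating projections when viewed by light microscopy. The title and source name of the mock sample call it a control without alpha factor, whereas its free-text description repeats that of the treated sample and names arrested cells. The title and source name were followed, and the growth of this culture is not described in the sources used here. The 2 cultures shared a strain of mating type a from the S288c background, MATa ura3Δ0 leu2Δ0 his3Δ1 met15Δ0 bar1Δ::KanMX, so both lacked BAR1, whose secreted product breaks the pheromone down. Because each condition had 1 array, no difference below has a replicate error or a test, and each is a difference between 2 arrays.

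Ergosterol is made in the endoplasmic reticulum, and most of it is moved to the plasma membrane, where it sets the stiffness and order of the bilayer. The late steps need oxygen, heme and electrons passed on by reductases, and they are the targets of the azole and morpholine antifungal drugs. Sterols are known to gather at the tip of the mating projection, and late-pathway mutants of budding yeast are known to signal and fuse poorly in mating. Cells of the a type that sense alpha factor stop dividing before S phase, turn on mating genes through the transcription factor Ste12 and grow toward a partner.

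Values are log2 expression values as deposited, and a log2 ratio is the alpha-factor value minus the mock value of the same gene. The call used throughout, higher or lower, required a 2-fold ratio and a value above background in at least 1 array. The background level was the 95th percentile of the probe sets for the fission yeast S. pombe, 5.49 in the alpha-factor array and 5.50 in the mock array. Values ran up to 15.19 in the alpha-factor array and 15.14 in the mock array. Of all genes above background, 5.51% were called higher and 3.78% lower. All 13 listed pheromone response genes were called higher, with summed linear levels of 194814 in the alpha-factor array and 24389 in the mock array. Of 6 a-cell genes above background, ASG7 and the agglutinin gene AGA2 were called higher, 26.1-fold and 2.42-fold, and none was called lower. The list's summed linear level, with the deleted BAR1, was 106267 in the alpha-factor array and 54561 in the mock array. All 4 alpha-cell genes were above background, 2 of them called higher, and their summed linear level was 2142 in the alpha-factor array and 1091 in the mock array. MF(ALPHA)2, the lesser of the pheromone genes of alpha cells, was at 8.64 in the alpha-factor array and 6.36 in the mock array, 4.84-fold higher. STE3, the a-factor receptor gene, was at 9.49 in the alpha-factor array and 7.74 in the mock array, 3.38-fold higher. MF(ALPHA)1, the major alpha-factor gene, was at 5.93 in the alpha-factor array and 5.85 in the mock array, close to background. The part of these marker genes in the sterol results was not tested. The deleted BAR1, URA3, LEU2 and MET17 (MET15) were below background in both arrays, whereas HIS3, of which the allele his3Δ1 removes only a part, was at 12.21 in the alpha-factor array and 11.80 in the mock array.

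ERG24 was the only member of the late pathway called in either direction. It encodes the sterol reductase that saturates the ring double bond left behind by Erg11, and is the main target of morpholine drugs. Its value was 13.78 in the alpha-factor array and 12.31 in the mock array, a log2 ratio of 1.47 or 2.76-fold higher with alpha factor. By that ratio it stood at rank 142 of the 5337 genes above background, counted from the highest. Of those genes, 5.51% were called higher, 3.78% lower and 9.29% in either direction, so that 1 call among 10 members is a count near the background and no result about the pathway as a whole. In RNA from whole cultures, a change in the share of cells that express a gene and a change in RNA per cell cannot be told apart.

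ERG11, which encodes the cytochrome P450 that removes a methyl group from lanosterol in the step before Erg24 and is the target of azoles, was at 14.05 in the alpha-factor array and 13.99 in the mock array. Its log2 ratio of 0.06 lay 1.41 below that of ERG24. The genes of adjoining steps therefore had unlike ratios, with that of the substrate-making enzyme within 2-fold and that of the reductase past it.

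The paired methyl groups of ring A are then taken off by a complex of 3 enzymes. ERG25, the oxidase of this complex, was at 13.49 in the alpha-factor array and 13.74 in the mock array, a log2 ratio of -0.25. ERG26, its dehydrogenase and decarboxylase, was at 12.31 in the alpha-factor array and 11.87 in the mock array, a log2 ratio of 0.44. ERG27, the keto reductase of the complex, was at 12.67 in the alpha-factor array and 12.84 in the mock array, a log2 ratio of -0.17. The genes of the 3 subunits stayed within 2-fold and did not share a sign. ERG26 had the second-highest ratio of the late pathway, 1.02 below that of ERG24 on the log2 scale. ERG28, a membrane scaffold that holds these enzymes together, was at 11.96 in the alpha-factor array and 11.57 in the mock array, a log2 ratio of 0.38.

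The last 5 enzymes work on the side chain and on ring B, and none of their genes had a ratio above that of ERG11. ERG6, the methyltransferase that gives the side chain its fungal methyl group, was at 13.43 in the alpha-factor array and 13.81 in the mock array, a log2 ratio of -0.38. ERG2, the isomerase that moves the ring B double bond, was at 13.63 in the alpha-factor array and 13.80 in the mock array, a log2 ratio of -0.17. ERG3, the desaturase that adds a further double bond to ring B, was at 12.75 in the alpha-factor array and 13.28 in the mock array. Its log2 ratio of -0.53 was the lowest of the 10 and lay 1.99 below that of ERG24. ERG5, a cytochrome P450 that desaturates the side chain, was at 12.81 in the alpha-factor array and 12.80 in the mock array, a log2 ratio of 0.02. ERG4, the reductase that makes ergosterol itself, was at 12.56 in the alpha-factor array and 12.94 in the mock array, a log2 ratio of -0.39. In this last stretch 4 genes were lower with alpha factor by less than 2-fold and ERG5 was nearly equal in both arrays.

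**Figure D1:**
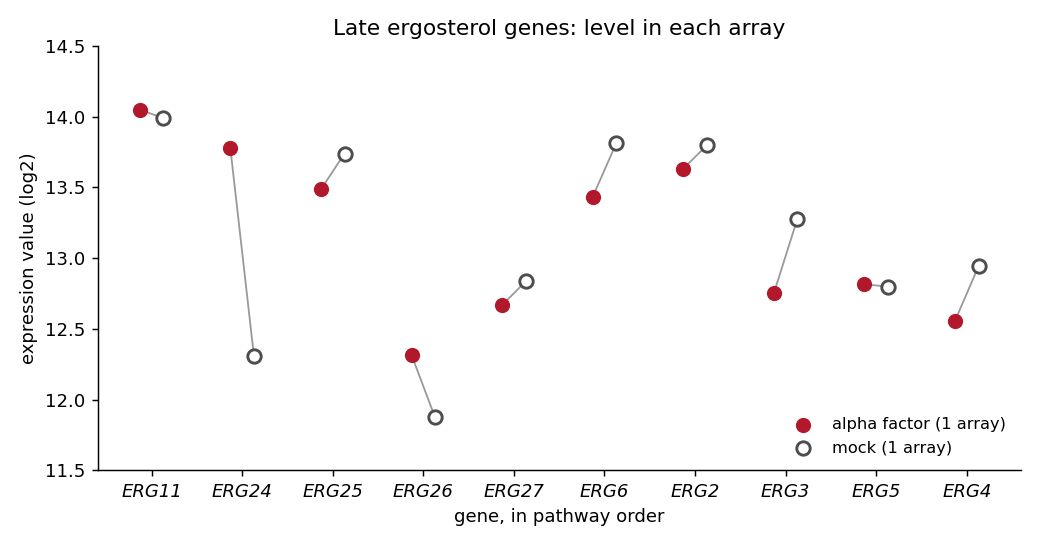
Expression value (log2, vertical axis, which does not start at 0) of each late ergosterol gene in the alpha-factor array (filled) and the mock array (open), in pathway order. ERG24 has the longest line, with 13.78 in the alpha-factor array and 12.31 in the mock array. Heights of different genes come from different probes and are not to be set against each other.

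The 9 members other than ERG24 had log2 ratios between -0.53 and 0.44, with a median of -0.17. The median over all 10 was also -0.17, and over all genes above background it was -0.03. All 9 lay between the 5th and 95th percentiles of the ratios of all genes, -0.87 and 1.07, and 5 of them lay between the quartiles of -0.32 and 0.26. ERG24 lay above that 95th percentile. The ratios of S. pombe probe sets, which measure signal near background only, ran from -0.38 to 0.35 over their middle 95%, and no such range is known for bright genes in these cultures. The members are bright in both arrays, where ratios can be compressed.

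**Figure D2:**
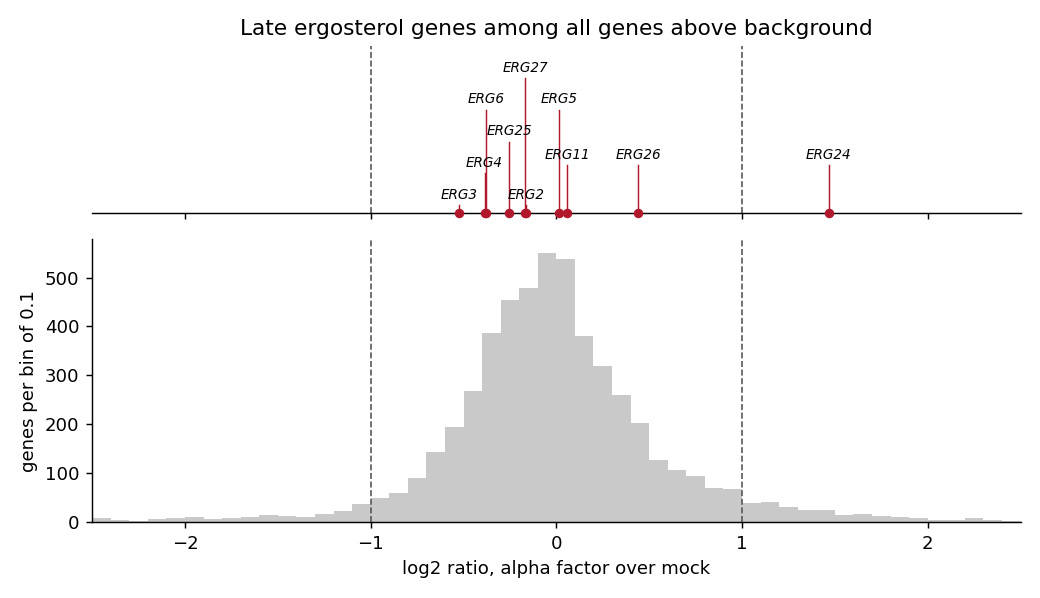
Log2 ratio (alpha factor over mock) of the 10 late ergosterol genes (top) above the histogram of all 5337 genes above background, as genes per bin of 0.1. Dashed lines mark 2-fold, and 69 genes beyond 2.5 in size are not drawn. Only ERG24 of the 10 genes stands outside the dashed lines.

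The earlier part of the pathway, from acetyl-CoA through mevalonate and squalene to lanosterol, held no called gene. Of all genes above background, 9.29% were called in either direction. Of its 12 genes, 10 had a ratio above 0 and 2 below, and their median log2 ratio was 0.13. The highest was MVD1, a decarboxylase of the mevalonate steps, at 13.22 in the alpha-factor array and 12.85 in the mock array, a log2 ratio of 0.37. The lowest was ERG7, which closes the rings to form lanosterol, at 12.03 in the alpha-factor array and 12.16 in the mock array, a log2 ratio of -0.13. HMG1 and HMG2, the paired genes of the rate-controlling HMG-CoA reductase, had log2 ratios of 0.01 and 0.12. ERG1, the squalene epoxidase and target of allylamine drugs, had a log2 ratio of 0.20. Among the genes of all 22 enzymes of the pathway, ERG24 had the highest ratio and was the only one called. Beside the 9.29% of all genes, 1 call among 22 is no result about the pathway. These genes were chosen with earlier results of these data known, so the place of ERG24 among them is a description only. Of the late genes, 4 of 10 had a ratio above 0, against 10 of 12 early genes and 2447 of all 5337 genes above background. The differences between these shares were not tested.

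**Figure D3:**
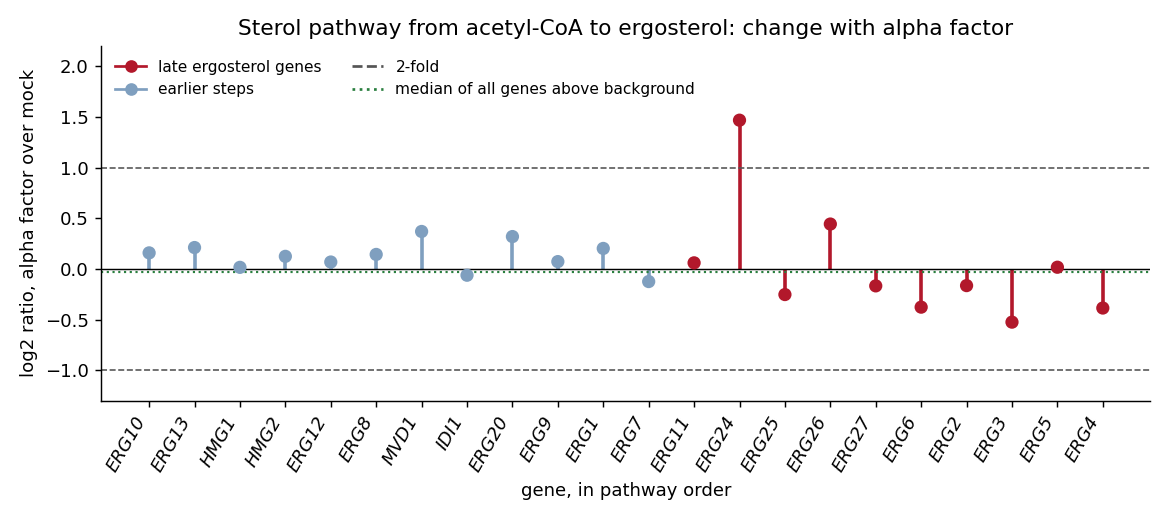
Log2 ratio (alpha factor over mock, vertical axis) of 22 sterol pathway genes in pathway order, with the 12 earlier genes in blue and the 10 late genes in red. Dashed lines mark 2-fold and the dotted line marks the median of all genes, -0.03. ERG24 at 1.47 is the one gene beyond a dashed line.

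The genes of the proteins that serve the late enzymes were also within 2-fold. DAP1, a heme-binding protein that supports Erg11, was at 11.72 in the alpha-factor array and 10.93 in the mock array, and its log2 ratio of 0.79 was the highest of these 6 genes. NCP1, the reductase that feeds electrons to the P450 enzymes, was at 12.81 in the alpha-factor array and 13.22 in the mock array, a log2 ratio of -0.41. CYB5, the cytochrome that passes electrons to sterol desaturation, was at 12.03 in the alpha-factor array and 12.54 in the mock array, a log2 ratio of -0.51. CBR1, the reductase of that cytochrome, had a log2 ratio of 0.13. ERG29, a membrane protein needed for the methyl oxidase step, was the lowest at 10.52 in the alpha-factor array and 11.07 in the mock array, a log2 ratio of -0.54. Over the 6 genes the median was -0.14, with 3 genes above 0 and 3 below.

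The genes beside ERG24 on chromosome XIV were examined because neighbours that point away from each other can share a promoter region. ERG24 (YNL280C) and PRM1 (YNL279W) are adjacent and divergent in the R64 annotation. PRM1 encodes a pheromone-regulated membrane protein that acts when the plasma membranes of mating cells fuse. PRM1 was at 13.93 in the alpha-factor array and 8.80 in the mock array, 34.9-fold higher with alpha factor and at rank 7 of all genes. On the other side, HCH1 (YNL281W), which encodes a protein related to the Hsp90 activator Aha1, converges on ERG24. HCH1 was at 12.88 in the alpha-factor array and 12.99 in the mock array, a log2 ratio of -0.11. Of the 3 genes in a row, the divergent pair was called higher and the convergent one was not.

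Of the 20 chromosomal neighbours of the 10 late ergosterol genes, 17 were measured, and PRM1 was the only one called. Of all genes above background, 9.29% were called in either direction, so 1 call among 17 is a count near the background. The other 16 had log2 ratios between -0.56, for BUD22 beside ERG5, and 0.79, for STP2 beside ERG11. Among them, 2 were divergent partners of a late ergosterol gene. SPT8, a subunit of the SAGA coactivator that is divergent from ERG3, was at 10.58 in the alpha-factor array and 11.05 in the mock array. Its log2 ratio of -0.47 lay close to the -0.53 of ERG3. PDR1, a regulator of drug resistance genes that is divergent from ERG4, was at 11.40 in the alpha-factor array and 11.21 in the mock array, a log2 ratio of 0.19 against -0.39 for ERG4. The other measured neighbours were YHR007C-A beside ERG11, ADE6 beside ERG25, ERP6 and EFM5 beside ERG26, MIM2 and APC9 beside ERG27, MRPL39 beside ERG6, TOM40 beside ERG2, MNL2 beside ERG3, SOK2 beside ERG5 and SCL1 beside ERG4.

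**Figure D4:**
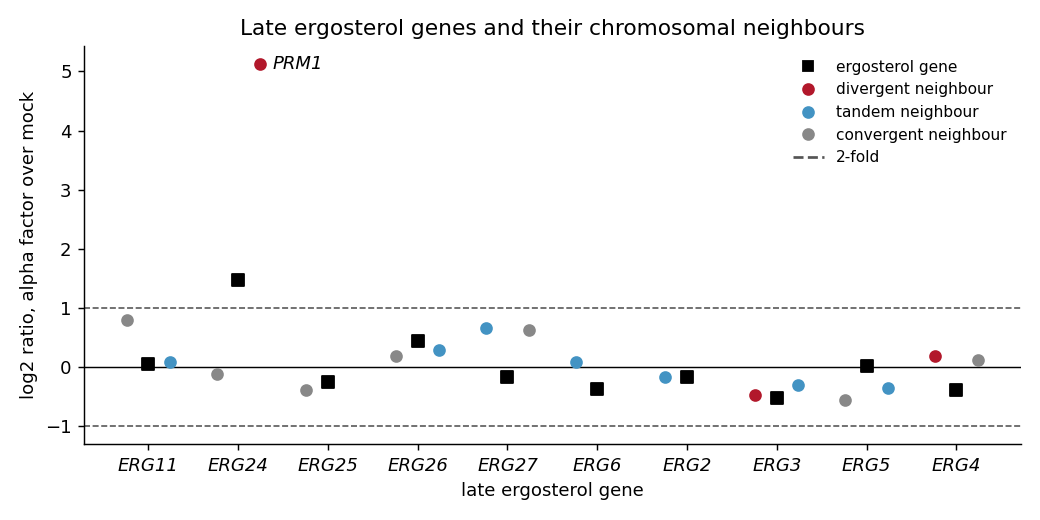
Log2 ratio (alpha factor over mock, vertical axis) of each late ergosterol gene (square) and of its measured neighbours on either side (circles, coloured by orientation). Dashed lines mark 2-fold. PRM1 at 5.13 and ERG24 at 1.47 are the points above the upper dashed line.

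The same was counted over the whole genome, as a description without a test. Of 103 genes called higher that had a divergent neighbour above background, 30 (29.1%) had a neighbour that was also called higher. A pair with both genes called higher was counted from each side, so ERG24 and PRM1 are each among the 30. Among neighbours in tandem, counted once for each gene called higher that they adjoin, 52 of 268 were called higher (19.4%), and among convergent neighbours 6 of 123 (4.88%), beside 5.51% of all genes. Restricted to genes at least 8-fold higher, 4 of 10 divergent, 6 of 23 tandem and 1 of 9 convergent neighbours were called higher. The divergent ones were ERG24 beside PRM1, PRP39, a splicing factor gene, beside PRM6, CAB2, a coenzyme A synthesis gene, beside the Ty3 reading frame YIL082W-A, and TOG1, a transcription factor gene, beside PUG1, with log2 ratios of 1.47, 1.18, 1.16 and 1.68. The other 6 divergent neighbours had log2 ratios between 0.00 for CST6, beside PRM2, and 0.96 for RLM1, beside YPL088W. A gene next to a strongly higher divergent partner was thus called in some cases and not in others.

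With 2 arrays, a gene's pattern is its log2 ratio alone, and VPS73 and CRR1 were among the 3 genes nearest to ERG24 by that measure, each at 1.47. VPS73 was at 9.88 in the alpha-factor array and 8.42 in the mock array. CRR1, a cell wall gene known from spores, was at 9.17 in the alpha-factor array and 7.70 in the mock array.

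Of 8 known regulators of sterol genes, 2 were called lower with alpha factor and none higher, beside 3.78% lower and 5.51% higher of all genes. All 8 had a ratio below 0, as had 53.9% of all genes above background, and their median log2 ratio was -0.64. ROX1, a repressor of hypoxic genes that also represses late sterol genes, was at 8.89 in the alpha-factor array and 10.17 in the mock array, 2.43-fold lower. MOT3, a repressor known from ergosterol and hypoxic genes, was at 9.18 in the alpha-factor array and 10.24 in the mock array, 2.08-fold lower. UPC2, the sterol-sensing activator of the pathway, was at 8.28 in the alpha-factor array and 9.24 in the mock array, and its log2 ratio of -0.96 was just short of the rule. ECM22, its paralogue, had a log2 ratio of -0.47, and HAP1, the heme-responsive activator, had the highest of the list at -0.11. The genes of the repressors and of the activators of the pathway were thus on the same side of 0.

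Of 16 genes of sterol esters, acetylation and uptake above background, 5 were called lower and none higher. Of all genes above background, 3.78% were called lower and 5.51% higher. In the list, 12 of the 16 had a ratio below 0, as had 53.9% of all genes, and the median log2 ratio was -0.36. ATF2, which acetylates sterols, was at 9.50 in the alpha-factor array and 11.64 in the mock array, 4.40-fold lower and the lowest of the list. PRY1, a secreted sterol-binding protein, was at 11.30 in the alpha-factor array and 12.38 in the mock array, 2.11-fold lower. The other called genes were the cell wall mannoprotein genes TIR3, TIR1 and TIR4, which are induced with sterol uptake when oxygen is low, at 3.61-fold, 3.18-fold and 2.23-fold lower. DAN4, of the same kind, had the highest log2 ratio of the list, 0.83, and DAN1 was below background in both arrays. ARE2, the main sterol acyltransferase, had a log2 ratio of -0.37, and AUS1 and PDR11, the sterol import pumps, had -0.34 and -0.47. In the list of hypoxic genes, TIR3 and TIR1 were the 2 called lower of 9 above background, beside 3.78% of all genes. None of the 9 was called higher, and COX5B and ANB1 had log2 ratios of 0.90 and 0.72. Of these 9 genes, 4 had a ratio above 0 and 5 below, with a median log2 ratio of -0.20. The list's summed linear level was 26740 in the alpha-factor array and 31001 in the mock array. That sum rests most on OLE1, the brightest gene of the list, at 13.96 in the alpha-factor array and 13.93 in the mock array. The part of the hypoxic list in the sterol results was not tested.

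Of 16 sterol transfer genes, 1 was called higher and none lower, beside 5.51% higher and 3.78% lower of all genes. The called gene was OSH6, which encodes a lipid transfer protein of the oxysterol-binding family. It was at 11.54 in the alpha-factor array and 10.34 in the mock array, 2.31-fold higher. Its paralogue OSH7 had a log2 ratio of 0.27. The lowest of the list was HES1, also of that family, at -0.86. NCR1, the yeast relative of the Niemann-Pick C1 protein, had a log2 ratio of 0.77.

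The other lists of related genes held few calls. None of 8 genes of HMG-CoA reductase and squalene epoxidase turnover was called, with log2 ratios between -0.16 for NSG1 and 0.35 for HRD3. None of 8 heme synthesis genes was called, with ratios between -0.88 for HEM3 and 0.08 for HEM4, and HEM13, the oxygen-dependent enzyme of that route, was at -0.78. None of 13 genes of the prenyl branches that start from the same intermediates was called, with ratios between -0.58 for RCE1 and 0.58 for SRT1. Of 12 fatty acid genes, ELO1, an elongase of medium-length fatty acids, was called, at 11.08 in the alpha-factor array and 12.88 in the mock array, 3.48-fold lower, and the highest ratio was that of IFA38 at 0.13. Of 18 sphingolipid genes, the ceramidase genes YPC1 and YDC1 were called, 3.57-fold and 2.62-fold higher, and the lowest ratio was that of SUR2 at -0.42. YPC1 was at 10.71 in the alpha-factor array and 8.87 in the mock array, and YDC1 was at 11.95 in the alpha-factor array and 10.56 in the mock array. Over the 10 related lists together, each gene once, 3 of 117 genes above background were called higher (2.56%) and 8 lower (6.84%), beside the 5.51% and 3.78% of all genes.

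**Figure D5:**
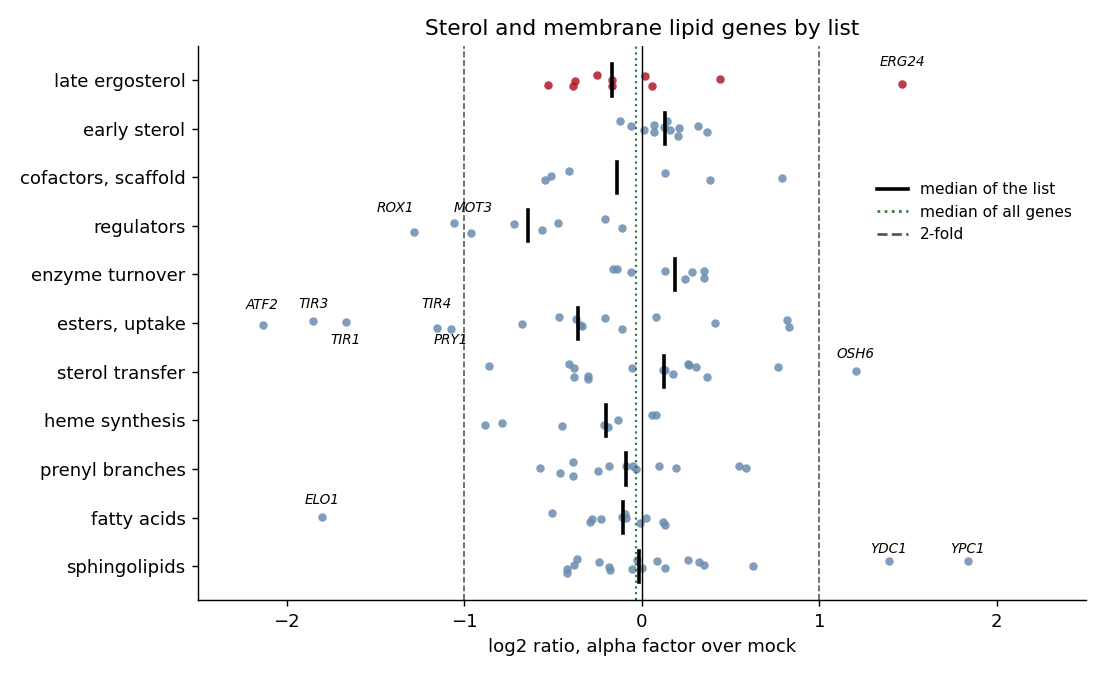
Log2 ratio (alpha factor over mock, horizontal axis) of the genes above background in the late ergosterol list (red) and in 10 lists of related genes (blue), 1 point a gene, spread vertically only to separate points. Black bars are list medians, the dotted line is the median of all genes, and genes beyond the dashed 2-fold lines are named. ERG24 is the only late ergosterol gene among the named ones.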

How the data were processed

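Total RNA of 1 alpha-factor and 1 mock culture was extracted with hot acidic phenol, DNase-treated, labelled with biotin and hybridised to 1 array each, per the labels. The authors deposited 1 log2 expression value per probe set and array, made with the affy package, per the submitters' processing notes; its version, background correction, normalization and probe summary were not given in the sources used here. The scale was read from the values. The sorted columns differed by at most 0.092, so the arrays may have been scaled to each other, which no source used here records. Ratios are relative to the average gene, and a change in total mRNA would not show.

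Of 10928 probe sets, 7244 had 1 gene in the platform annotation, 1 had several and 3683 were unnamed here. Gene IDs were matched to RefSeq assembly R64, which gave 5498 S. cerevisiae probe sets. The 1746 others with 1 gene were taken as S. pombe. The probe sets of 1 gene were averaged (47 of 5449 genes). Neighbours and orientation came from R64, with orientation read from the systematic names; no build is named for the array, so no coordinates are given. The members and lists were chosen with earlier results of these data known. Named were all members, their measured neighbours, the called genes and the extremes of each list, and the 3 genes nearest to ERG24, of which 1 is not reported here; other genes named, among them the divergent partners of genes 8-fold higher, were chosen after their values were seen. Planned comparisons of promoter motifs and of protein sequences were not analysed here. Alternatives were other centrings, quantile normalization, loess, the brightest probe set, a pseudocount, other background levels and other fold rules. Python 3.11.15, numpy 2.4.6, pandas 2.3.3, statsmodels 0.14.6 and matplotlib 3.10.9 were used.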

Additional observations from a re-analysis of the deposited data

How the results depend on the processing

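ERG24 was called higher under every centring, normalization, probe set rule, pseudocount and background level tried, with log2 ratios between 1.46 and 1.52, and PRM1 had log2 ratios between 5.03 and 5.21. The median of the late ergosterol genes lay between -0.17 and -0.12 and that of the early genes between 0.13 and 0.20. The fold rule decided the counts. At 4-fold, 0 late ergosterol genes, 0 related genes and 68 of all genes were called higher, and 1 related gene and 54 of all genes were called lower. At 1.5-fold, 8 related and 646 of all genes were called higher and 14 related and 570 of all genes lower, while ERG24 was the single late ergosterol gene called. PRY1 missed the 2-fold rule after removal of a loess curve, with a log2 ratio of -0.99. The alternative spelling of a promoter motif was not run. No paired analysis was possible because each condition has 1 array. Signal over background did not limit the members, which are bright, but the single array per condition leaves every ratio without an error.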
